A study of Mus musculus with 6 samples.

Results

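The cytoplasmic ribosomal proteins were examined as a family in BCR-ABL1+ mouse B cells without and with gamma-catenin, the junction protein also called plakoglobin and encoded by Jup. Members were the genes whose symbol starts with Rpl or Rps and a digit, or is Rplp0, Rplp1 or Rplp2, leaving out the Rps6k kinases and pseudogenes, and each was read by the probe set with the highest mean signal among those assigned to that gene symbol alone. This gave 62 genes of 19938 on the array, 38 named for the large and 24 for the small subunit. The 2 groups were Jup-/- (KO) and Jup+/+ (WT), with 3 arrays each, labelled as biological replicates, on the C57BL/6 background. In both, CD45.1+ mice had been rebuilt with CD45.2+ fetal liver cells of KO or WT embryos, their marrow was transduced with a retrovirus for BCR-ABL1 and green fluorescent protein (GFP) and passed to irradiated CD45.1+ recipients. At day 21 the GFP+ CD45.2+ B cells carrying B220 and BP-1 were sorted from bone marrow, so the oncogene comes from a virus and the recipient's own cells are excluded only by the sort. The sources used here state neither the age and sex of the mice nor whether a sample pooled animals, and p-values measure the spread between these samples.

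A ribosome is built from a small subunit, which reads the messenger RNA, and a large subunit, which joins amino acids, and each holds its own set of proteins around ribosomal RNA. The proteins are made in matched amounts, and most of their messengers begin with a run of pyrimidines, the 5′ terminal oligopyrimidine (TOP) motif, through which the kinase complex mTORC1 controls their translation. Their genes are among the most strongly transcribed in growing cells such as leukaemic B-cell precursors. Mutations of several of them cause blood disorders in people, among them Diamond-Blackfan anaemia.

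The targeted gene and the cell type were checked first. Jup measured 7.04, 7.06 and 7.27 on the log2 scale in KO arrays and 8.04, 7.62 and 8.51 in WT arrays, and the groups did not overlap, but the difference of -0.93 missed the threshold over all probe sets (SE 0.20, limma adjusted p = 0.171). The medians of the 6 arrays were 7.53 to 7.61. Of 15 markers of pro-B and pre-B cells 14 were measured, Igll1, Cd79a and Ebf1 among them, and all of these lay at or above the 78.8th signal percentile. WT replicate 2 was the only array with the Y-linked gene Uty (10.09, against 4.96 to 5.54 in the others) and with low Xist (6.20, against 13.03 to 13.38).

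The symbol rule takes most but not all of the ribosome, and some genes that are not part of it. Of 76 standard subunit genes of this naming pattern, 53 were measured, 33 of the large and 20 of the small subunit. The other 23, Rpl3 and Rpl11 among them, had no probe set with a single symbol, and 16 of these are listed only on rows that name several genes. The 9 further members are Rpl3l, Rpl7l1, Rpl10l, Rpl32l, Rpl39l, Rps4l and Rps27l, which resemble a ribosomal protein, the mouse retrogene Rps23rg1, and Rps19bp1, whose product binds Rps19. Ribosomal protein genes have many processed copies in the genome, and the array holds 214 single-symbol probe sets for the 62 members, 38 of which have several. Signal from such copies and from the parent gene cannot be told apart here.

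The starts of these genes were searched for the TOP motif. RefSeq promoters (assembly GRCm38.p6, from 250 bases before to 50 after the start) were found for 50 of the 62 members, as 59 promoters. A TOP start was counted where the first transcribed base is C and each of the next 4 is C or T, on the gene's strand only because the motif has a direction. It was present in 10 of 59 member promoters (16.9%) and in 823 of 32851 promoters in the whole table (2.51%). The annotated start may be off by some bases, so runs of at least 8 pyrimidines beginning with C were also sought within 25 bases of it. They stood on the gene's strand in 24 member promoters (40.7%, against 15.5% of all promoters) and on the opposite strand in 3 (5.08%, against 17.3%). The windows below reach from 15 bases before the annotated start to 15 from it on, 5′ to 3′. Capitals mark the longest run of C and T that begins with C, has at least 5 bases and reaches into the 5 bases on either side of the start. The first 4 are members with a TOP start, Rpl7a has a long run that spans the start without beginning there, and Rpl13, Rps3 and Rps27l had among the lowest moderated t values.
Rps6: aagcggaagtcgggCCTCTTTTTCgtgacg
Rps15a: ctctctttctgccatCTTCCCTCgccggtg
Rpl38: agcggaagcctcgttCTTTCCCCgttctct
Rpl28: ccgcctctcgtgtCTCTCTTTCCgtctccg
Rpl7a: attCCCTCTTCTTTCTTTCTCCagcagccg
Rpl13: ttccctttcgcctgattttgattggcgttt
Rps3: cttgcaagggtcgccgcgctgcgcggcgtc
Rps27l: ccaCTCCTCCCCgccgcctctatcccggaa
They lie at chr4:86857353-86857382 (minus strand, Rps6), chr7:118116133-118116162 (minus, Rps15a), chr11:114668565-114668594 (plus, Rpl38), chr7:4792950-4792979 (plus, Rpl28), chr2:26910792-26910821 (plus, Rpl7a), chr8:123102335-123102364 (plus, Rpl13), chr7:99483695-99483724 (minus, Rps3) and chr9:66946071-66946100 (plus, the first of 2 listed starts of Rps27l). The missing capitals in Rpl13 and Rps3 say only that no such run reaches the 5 bases on either side of the start. Rpl13 is among the 24 promoters with a run of at least 8 within 25 bases.

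Letters bound by common activators were counted in the 300 bases on both strands, and a base may count toward more than 1 motif. CCGGAA, the core bound by ETS factors, was in 26 of 59 member promoters (44.1%, against 14.9% of all). AANATGGC, a core of YY1 sites, was in 11 (18.6%, against 6.05%), and TATAAA in 6 (10.2%, against 13.6%). Among the 42 standard subunit genes with a promoter, the 9 with a TOP start had KO minus WT differences on the array of -0.15 to -0.03, with a median of -0.06. The 33 without one had differences of -0.21 to 0.02, with a median of -0.08.

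**Figure D1:**
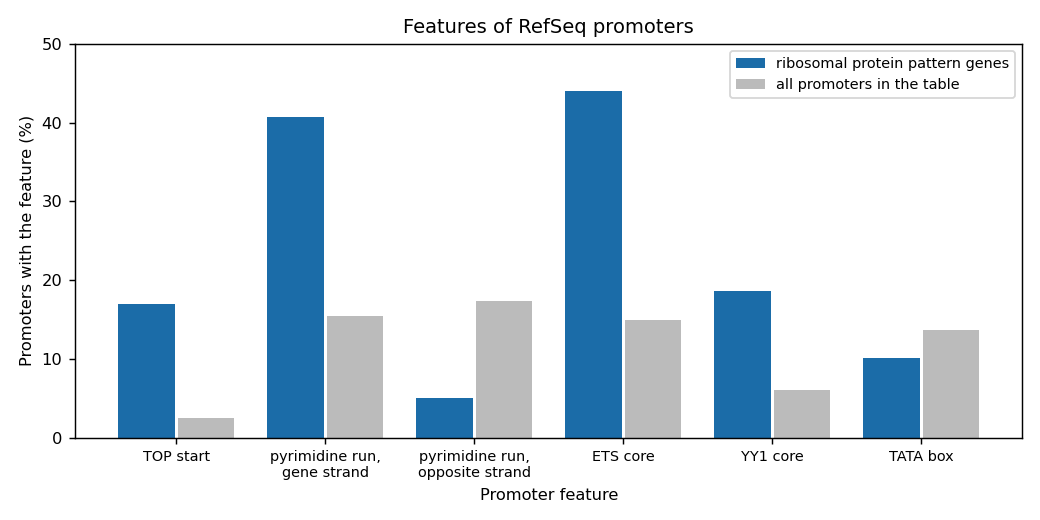
Share of RefSeq promoters, in percent, that hold each feature, for the 59 promoters of ribosomal protein pattern genes (blue) and all 32851 promoters of the table (grey). Pyrimidine runs on the gene's strand are at 40.7% against 15.5% and on the opposite strand at 5.08% against 17.3%.

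The comparison of KO with WT asks which transcripts depend on gamma-catenin in this leukaemia, and for the ribosomal proteins the differences were small and mostly in the direction of lower KO means. Of the 62 members 56 had a lower KO mean, where 55.8% of all probe sets did. The median difference was -0.07 on the log2 scale, or 4.50% lower, against a median of -0.02 over all 21789 probe sets tested. No member passed the threshold of an adjusted p of 0.05 (limma, Benjamini-Hochberg over all probe sets), where 0.119% of all probe sets did, 0.0505% higher and 0.0688% lower in KO. The lowest adjusted p of a member was 0.357. At an unadjusted limma p under 0.05, 5 members were lower (8.06%, against 4.73% of all probe sets) and 0 higher (against 4.48%, or 9.22% in either direction). The 3 KO arrays were all below the 3 WT arrays in 19 members (30.6%, against 8.08% of all probe sets) and all above in 0 (against 5.94%). Among probe sets of other genes above the 90th signal percentile, where most members lie, 324 of 1986 had such a gap, and the share was 17.9% for those with a mean signal between 12 and 13 and 19.4% above 13. The count of 19 depends on the scaling. It was 10 with each array centred on its median, against 6.71% of all probe sets, and 12 after a further quantile normalization, against 8.69%, each with 1 member above. Leaving out an array, which makes a gap easier to reach, gave 19 to 35 members and also raised the share over all probe sets. It was 35 against 15.3% without KO replicate 1, 28 against 12.2% without WT replicate 2, 24 against 22.0% without WT replicate 1 and 19 against 11.1% without KO replicate 2.

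The intervals bound the size of these differences, although the typical standard error was as large as the typical difference. Moderated standard errors of the members were 0.07 to 0.20, with a median of 0.08, against a median difference of -0.07. They mix each gene's own spread with a prior shared by all probe sets. The median SD over the 6 arrays was 0.08 for the members and 0.12 for all probe sets. Rps6, with an SD of 0.01 in each group, had a standard error of 0.07. With a trended and robust prior 11 members had an unadjusted limma p under 0.05, against 5 in the main fit. The 95% interval of the difference lay within a 1.2-fold change in either direction for 32 of the 62 members, 30 of them standard subunit genes, and within a 1.5-fold change for 61. The exception to the wider bound was Rpl3l, a dim probe set. The difference was larger than the SD of either group in 32 members, and the share of all probe sets for which this holds was not computed.

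**Figure D2:**
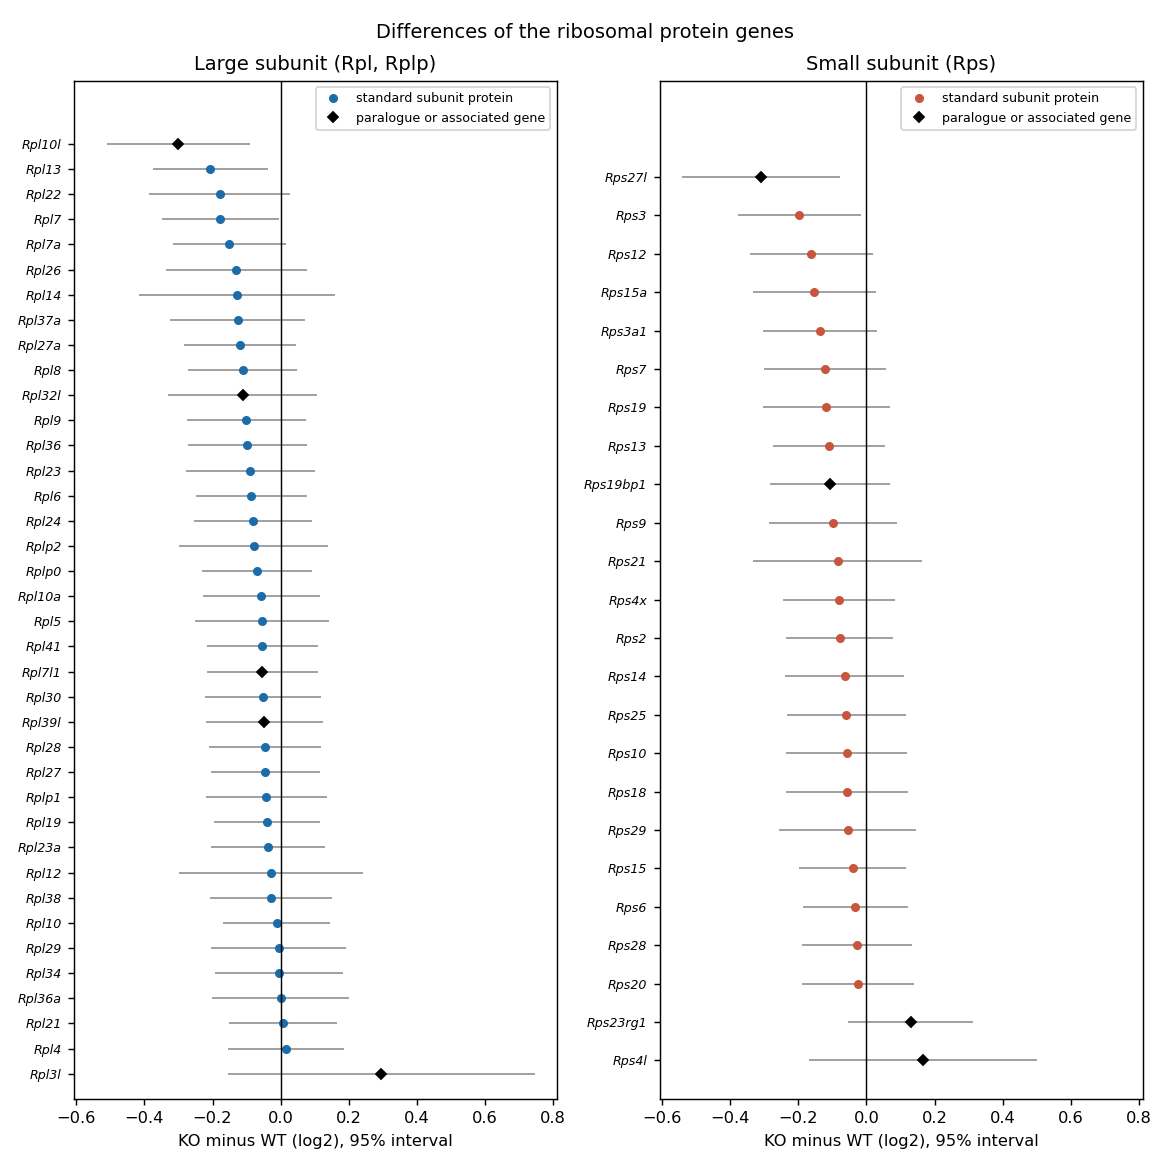
KO minus WT differences (log2, points) with their 95% intervals from limma for the 38 large and the 24 small subunit genes, ordered by size. Circles are standard subunit proteins and diamonds paralogues or associated genes. Of all points 56 lie left of 0, and Rps27l and Rpl10l lie furthest left.

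KO means were below WT in 30 of 33 standard genes of the large subunit, and the median difference was -0.06. The count was 25 after a further quantile normalization and 27 to 31 with single arrays left out. Rpl13, a protein of the large subunit whose mutation disturbs skeletal growth in people, measured 11.35, 11.21 and 11.31 in KO arrays and 11.47, 11.51 and 11.52 in WT arrays. All KO arrays were below all WT arrays, with a difference of -0.21 (SE 0.07, limma unadjusted p = 0.022, adjusted p = 0.439). All 9 single-symbol probe sets of Rpl13, which are not independent of each other, had a lower KO mean, between -0.24 and -0.16. Rpl7, an RNA-binding protein of the large subunit, measured 12.32, 12.22 and 12.35 in KO arrays and 12.43, 12.47 and 12.52 in WT arrays. Here too the groups did not overlap (difference -0.18, SE 0.08, limma adjusted p = 0.534). Rpl7a was at 12.59, 12.56 and 12.64 in KO arrays and 12.68, 12.78 and 12.78 in WT arrays, a difference of -0.15 (SE 0.07, limma adjusted p = 0.595).

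Rpl22, whose loss affects lymphocyte development in mice and which is deleted in some human T-cell leukaemias, stood at 9.43, 9.18 and 9.36 in KO arrays and 9.60, 9.45 and 9.46 in WT arrays. The groups did not overlap, though KO replicate 1 came close to WT replicate 2, and the difference was -0.18 (SE 0.09, limma adjusted p = 0.619). Rpl5, which with Rpl11 and 5S ribosomal RNA binds the p53 regulator Mdm2, had a difference of -0.05 (SE 0.09), and its KO and WT arrays overlapped. Rpl10, which joins the large subunit late and is mutated in some human T-cell leukaemias, measured 13.89, 13.87 and 13.89 in KO arrays and 13.91, 13.91 and 13.87 in WT arrays. It had the smallest spread of all standard members, an SD of 0.02 over the 6 arrays, and a difference of -0.01 (SE 0.07). Rpl38, needed in mouse embryos for translation of a subset of Hox messengers, gave -0.03 (SE 0.08), and Rpl28 gave -0.05 (SE 0.07).

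The stalk of the large subunit, which recruits the elongation factors, is made of Rplp0, Rplp1 and Rplp2. Rplp0 was at 13.82, 13.73 and 13.83 in KO arrays and 13.88, 13.86 and 13.85 in WT arrays, so that the groups did not overlap at a difference of -0.07 (SE 0.07, limma adjusted p = 0.851). Rplp1 gave -0.04 (SE 0.08) and Rplp2 -0.08 (SE 0.10), both with overlapping arrays. The stalk genes therefore lay near the family's median.

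The 3 standard large subunit genes without a lower KO mean were all near 0. They were Rpl4, which lines the exit tunnel of the growing chain (0.02, SE 0.07), Rpl21 (0.01, SE 0.07) and Rpl36a (0.00, SE 0.09). Rpl29 and Rpl34 were next, both at -0.01 (SE 0.09 and 0.08). The signs of these 5 and of 9 other members, Rpl10, Rpl38 and Rplp1 among them, turned under at least 1 other scaling, weighting or choice of arrays. Probe sets of the same gene differed in sign only for Rpl21, Rpl36a and Rps28, which ranged from -0.01 to 0.03 over 9 probe sets of Rpl21, from -0.03 to 0.00 over 2 of Rpl36a and from -0.06 to 0.00 over 7 of Rps28.

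The small subunit had a lower KO mean in all 20 standard genes measured, and in 18 of them after a further quantile normalization or without WT replicate 1. The median difference was -0.08. Rps3, which sits at the messenger's entry to the ribosome, measured 12.13, 12.05 and 12.19 in KO arrays and 12.27, 12.28 and 12.41 in WT arrays. The groups did not overlap, and the difference of -0.20 had an unadjusted limma p of 0.037 and an adjusted p of 0.495 (SE 0.08). Rps12 was at 12.31, 12.19 and 12.36 in KO arrays and 12.48, 12.39 and 12.48 in WT arrays. Its difference was -0.16 (SE 0.08, limma adjusted p = 0.601), and all 14 of its probe sets had a lower KO mean, between -0.19 and -0.13. Several of these probe sets gave identical values on every array, so the 14 are not separate readings.

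Small subunit genes tied to blood disease were read next. Rps19, the gene most often mutated in Diamond-Blackfan anaemia in people, measured 12.17, 12.02 and 12.11 in KO arrays and 12.30, 12.14 and 12.22 in WT arrays, with an overlap of KO replicate 1 and WT replicate 2 (difference -0.12, SE 0.08, limma adjusted p = 0.743). Rps14, lost in the 5q- syndrome in people, gave -0.06 (SE 0.08), and Rps25, used for initiation at some viral internal entry sites, gave -0.06 (SE 0.08). Rps6, the substrate of S6 kinase downstream of mTORC1, was at 13.90, 13.88 and 13.88 in KO arrays and 13.90, 13.92 and 13.93 in WT arrays. Every KO array of Rps6 was below every WT array, by less than 0.01 for the closest pair, and the difference was -0.03 (SE 0.07, limma adjusted p = 0.948).

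The subunits were set against each other within each array, as the mean log2 value of the large subunit genes minus that of the small. Over the 62 members this balance was -0.12, -0.13 and -0.11 in KO arrays and -0.15, -0.11 and -0.12 in WT arrays. The KO mean was -0.12 ± 0.01 and the WT mean -0.13 ± 0.02 (SD, n = 3 each), a difference of 0.01, which is smaller than the SD of the WT arrays. With the standard genes only, the balance was -0.06, -0.07 and -0.05 in KO and -0.10, -0.06 and -0.07 in WT, a difference of 0.01, again within the WT spread of 0.02. WT replicate 1 was the lowest array in both versions. The sign turned when dim probe sets were left out (-0.002) and without WT replicate 1 (-0.003). A difference in the balance of the subunits was therefore not detectable with these arrays.

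**Figure D3:**
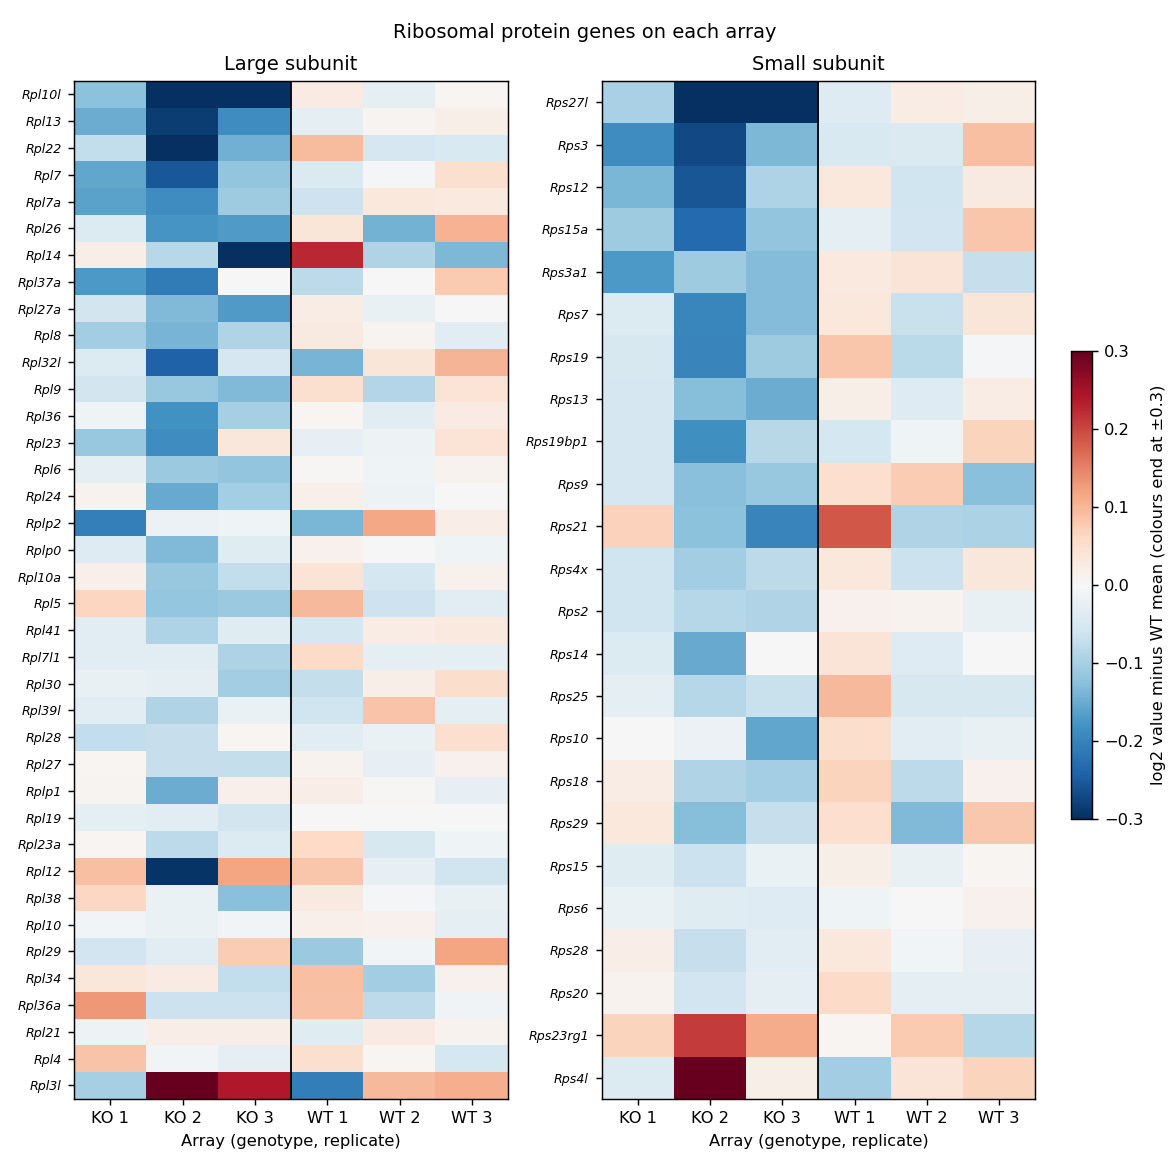
Each gene's log2 value minus its WT mean on every array, KO arrays left and WT arrays right of the line, for large and small subunit genes ordered by KO minus WT difference. Colours end at ±0.3, and single KO values of Rpl3l, Rps4l, Rps27l, Rpl10l, Rpl22 and Rpl14 exceed them. KO replicate 2 is the darkest blue column, holding the lowest of the 6 values in 33 of 62 genes.

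The paralogues and associated genes spread more widely than the subunit proteins. Rps27l, a close relative of Rps27 that p53 activates, was at 12.19, 11.85 and 11.90 in KO arrays and 12.25, 12.31 and 12.31 in WT arrays. All KO arrays were lower, with a difference of -0.31 that was the largest downward one of the family (SE 0.10, limma unadjusted p = 0.015, adjusted p = 0.386). KO replicate 1 lay close to the WT arrays and the other KO arrays well below, and without KO replicate 1 the difference was -0.42 (limma adjusted p = 0.130). Rpl10l, a copy of Rpl10 known for its role in mouse male meiosis, measured 6.93, 6.68 and 6.66 in KO arrays and 7.08, 7.03 and 7.06 in WT arrays. Its groups did not overlap (difference -0.30, SE 0.09, limma unadjusted p = 0.011, adjusted p = 0.357), while its parent Rpl10 gave -0.01. The Rpl10l probe set lay at the 38.4th signal percentile, so how much of its signal is Rpl10l messenger is uncertain.

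The other relatives went both ways without passing. Rps4l, related to the X-linked Rps4x, gave 0.17 (SE 0.15), with KO replicate 2 at 8.05 and the other 5 arrays between 7.42 and 7.59, while Rps4x gave -0.08 (SE 0.07). Without KO replicate 2 the Rps4l value turned to -0.01. Rpl3l, the form of Rpl3 known from heart and skeletal muscle, was dim and uneven, at 5.72, 6.57 and 6.06 in KO arrays and 5.61, 5.92 and 5.93 in WT arrays (0.30, SE 0.20). Rps23rg1 gave 0.13 (SE 0.08), and the dimmest member, Rpl39l, a relative of Rpl39 known from testis, gave -0.05 (SE 0.08). Rpl7l1, which resembles the large subunit protein Rpl7, gave -0.05 (SE 0.07), Rpl32l -0.11 (SE 0.10) and Rps19bp1 -0.11 (SE 0.08).

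The lower KO means were uneven among the KO arrays. As the mean deviation of the 53 standard genes from their WT means, KO replicates 1, 2 and 3 stood at -0.037, -0.120 and -0.079, and WT replicates 1, 2 and 3 at 0.023, -0.027 and 0.004. KO replicate 1 was thus close to WT replicate 2, the lowest WT array. KO replicate 2 had the lowest of the 6 values in 29 of the 53 genes, KO replicate 3 in 14 and KO replicate 1 in 3, and the WT arrays in 2, 3 and 2. Large subunit genes stood at -0.033, -0.116 and -0.071 in KO arrays and 0.012, -0.019 and 0.007 in WT arrays. Small subunit genes stood at -0.044, -0.126 and -0.093 in KO arrays and 0.040, -0.038 and -0.002 in WT arrays, so both subunits had the same order of KO arrays. At an unadjusted limma p under 0.05, in place of 5 members there was 1 without KO replicate 2 and 2 without WT replicate 2 or WT replicate 3. There were 3 without KO replicate 3, 4 without KO replicate 1 and 6 without WT replicate 1. No share over all probe sets was computed for these fits, so the counts have no background.

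Myeloid markers also differed between these arrays. Of 15 markers, all measured, 13 had a higher KO mean. Of these 3 passed (Mpo, Ctsg and Elane, of granule proteins in neutrophil precursors), where 0.0505% of all probe sets passed as higher in KO. The mean log2 level of the 15 was 8.46 to 8.54 in KO arrays and 7.62 to 8.11 in WT arrays. WT replicate 2 was the highest of WT. Csf1r and Cd14, which mark monocytes and macrophages, were at 6.42 to 6.66 and 5.77 to 5.99 in KO arrays and at 6.55 to 6.70 and 5.84 to 6.34 in WT arrays. Pro-B and pre-B markers had a median difference of 0.06 and a mean level of 12.01 to 12.12 in KO arrays and 11.96 to 12.02 in WT arrays, with members on both sides. Rag1 differed by 0.50 (SE 0.16), Rag2 by 0.42 (SE 0.10) and Ptprc by 0.19 (SE 0.08), while Enpep, which encodes the sort marker BP-1, differed by -0.23 (SE 0.09), none of them past the threshold. Of 7 erythroid markers 1 passed, Car1, higher in KO, but 4 had a lower KO mean, and the median difference was -0.002. Car2, the brightest of them, differed by -0.38 (SE 0.16), and Gata1 and Klf1 were dim on all arrays (5.90 to 6.47). None of 9 T and NK cell, 7 mature B and plasma cell and 6 stromal and endothelial markers passed. All KO arrays were above all WT arrays in 1, 3 and 1 markers of these lists, against 5.94% of all probe sets. They were all below in 1, 1 and 0, against 8.08%. Of mature B cell genes, Ms4a1 differed by 1.29 (SE 0.28, limma adjusted p = 0.178), Cd22 by 1.28 (SE 0.22, limma adjusted p = 0.106) and Fcer2a by 0.41 (SE 0.10). Cr2 differed by 0.04 (SE 0.10), with overlapping arrays, and Xbp1 of plasma cells by -0.28 (SE 0.09). The mean level of the mature B and plasma list was 8.39 to 8.50 in KO arrays and 8.05 to 8.33 in WT arrays. Of NK cell genes, Klrb1c differed by -0.79 (SE 0.20), Nkg7 by 0.49 (SE 0.13) and Ncr1 by -0.04 (SE 0.12). These markers were named after their values were seen. The part of these cells in the ribosomal protein differences was not tested, and fewer cells of a type and less RNA per cell cannot be told apart in bulk samples.

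**Figure D4:**
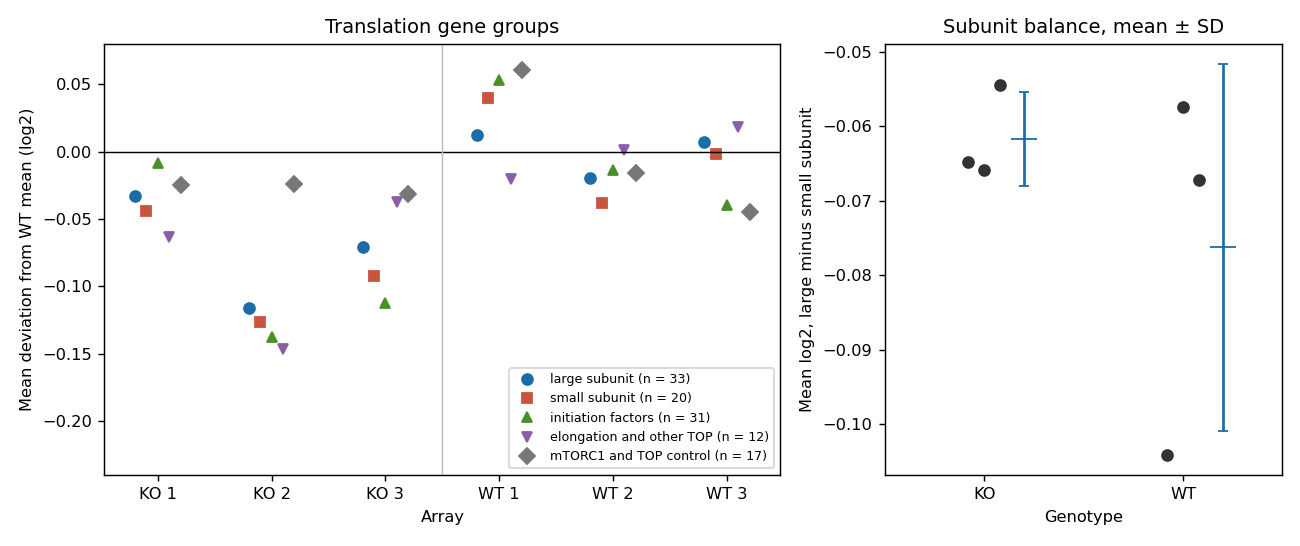
Left, mean deviation from the WT mean (log2) on each array for standard large and small subunit genes, initiation factors, elongation and other TOP genes, and regulators of mTORC1 and TOP messengers. Right, mean log2 of the standard large minus the standard small subunit genes by genotype (points, arrays; bars, mean ± SD, n = 3). The subunits move together and KO replicate 2 is lowest for both, while their balance overlaps between KO and WT.

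Most members gave a strong signal, 47 of the 62 above the 90th signal percentile, and their differences did not follow its strength in 1 direction. The 17 members with a mean above 13 had a median difference of -0.05 and a median SD over the 6 arrays of 0.05. The 23 members between 12 and 13 had a median of -0.10 and an SD of 0.09. The median was -0.08 for the 7 members between 11 and 12, -0.12 for the 8 between 9 and 11 and -0.03 for the 7 at 9 or below. Other probe sets above 13 had a median of -0.01 (n = 103) and those between 12 and 13 of -0.03 (n = 425), and 63.1% and 64.5% of them had a lower KO mean, against 55.8% of all. Above the 90th percentile, 1986 probe sets of other genes had a median of -0.02, 59.3% of them with a lower KO mean. After a further quantile normalization the members' median was -0.05 and that of the other bright probe sets -0.005, and 49 members had a lower KO mean. The part of signal strength in the members' differences was not tested.

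**Figure D5:**
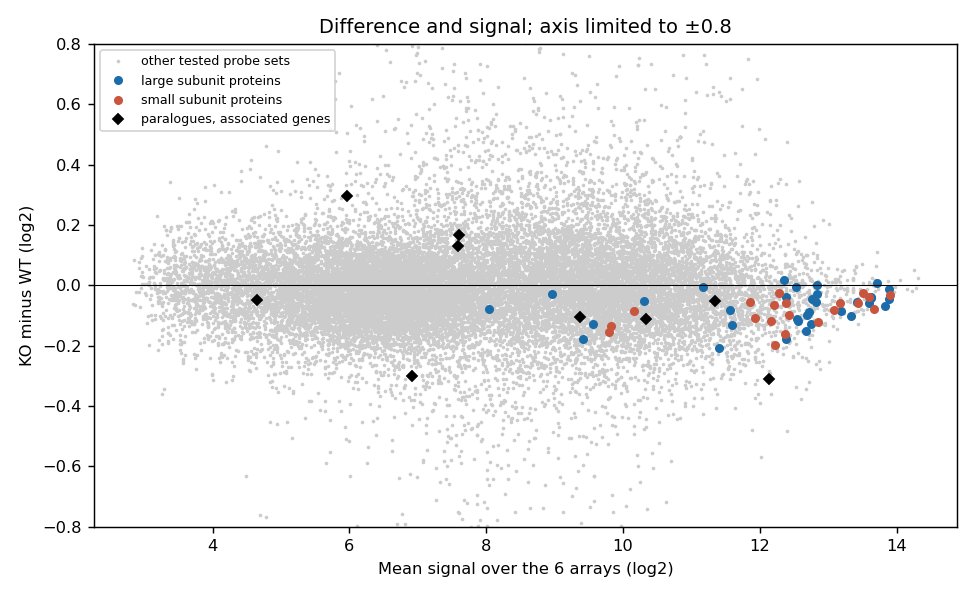
KO minus WT difference (log2) against mean signal over the 6 arrays (log2) for standard subunit proteins of the large (blue) and small (red) subunit, paralogues and associated genes (black) and other tested probe sets (grey), with the vertical axis limited to ±0.8. The subunit proteins sit at the right, 50 of 53 below 0 and none lower than -0.21.

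Rows of the array that were not used for naming were also read. The 239 rows with several symbols, at least 1 of them by the pattern, had a median difference of -0.07, and 194 had a lower KO mean. All KO arrays were below all WT arrays in 86 of them and above in 1, against 8.08% and 5.94% of the tested probe sets. Their p-values come from a separate limma fit over all 35556 rows, with 3 lower at an unadjusted p under 0.05 and 0 higher. The shares of 4.73% lower and 4.48% higher belong to the fit of the 21789 tested rows. All 214 single-symbol probe sets of the members had the same median of -0.07, with 200 lower. These rows share sequence with the members and are not independent of them. Of the subunit genes that the symbol pattern misses, Fau, which encodes Rps30, gave -0.06 (SE 0.07) and Rpsa, the small subunit protein also known as the laminin receptor, gave 0.00 (SE 0.12).

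Other genes of the translation machinery were read from lists of initiation factors, of elongation factors and other TOP messengers, and of mTORC1 and TOP regulators. No gene of these lists passed the threshold (limma, over all probe sets). KO means were below WT in 25 of 31 initiation factors measured, at a median difference of -0.09. The shares were 55.8% of all probe sets and 59.3% of non-members above the 90th signal percentile. The list's mean deviation from WT was -0.008, -0.138 and -0.112 in KO replicates 1 to 3. It was 0.053, -0.013 and -0.040 in WT replicates 1 to 3, so the genotypes overlapped. At an unadjusted p under 0.05, 3 initiation factors were lower and 0 higher, against 4.73% and 4.48% of all probe sets. These were Eif2b3, a subunit of the exchange factor of eIF2 (-0.30, SE 0.08, limma adjusted p = 0.278), Eif1ax, which takes part in start codon selection (-0.21, SE 0.08), and Eif3i, a subunit of eIF3, named after its value was seen (-0.22, SE 0.08). Eif2b3 measured 9.70, 9.50 and 9.61 in KO arrays and 9.91, 9.88 and 9.92 in WT arrays, with no overlap. At the other end stood Eif4g3, a scaffold of the cap complex (0.10, SE 0.09), and Eif2s3x, the X-linked gamma subunit of eIF2 (0.07, SE 0.13). Eif2s3x was at 12.02 in WT replicate 2, against 12.34 to 12.50 in the other arrays. WT replicate 2 is also the only array with Uty and with low Xist, and the part of this in the Eif2s3x difference was not tested.

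Of 12 elongation factors and other TOP messengers 11 were below WT in their KO mean, at a median difference of -0.07, with 1 lower at an unadjusted p under 0.05, against the same 4.73% of all probe sets. That gene was Eef1d, the delta subunit of elongation factor 1 (-0.20, SE 0.07, limma adjusted p = 0.444), followed by Eif5a, which helps ribosomes through difficult stretches such as proline runs (-0.24, SE 0.11). Vim, which encodes vimentin, was the 1 with a higher KO mean (0.07, SE 0.07), and Tpt1 was near 0. Regulators of mTORC1 and TOP messengers showed no common lean, with 8 of 17 lower, a median of 0.02 and none at an unadjusted p under 0.05. Their extremes by moderated t were Rheb, the activator of mTORC1 (-0.17, SE 0.08), the stress-induced inhibitor Sesn2 (-0.36, SE 0.17), Rps6kb2, an S6 kinase (0.15, SE 0.08), and Tsc1, of the complex that restrains Rheb (0.09, SE 0.08). Sesn2 was at 7.86, 7.92 and 7.91 in KO arrays and 8.67, 8.19 and 7.91 in WT arrays, and WT replicate 3 lay within the KO range.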

How the data were processed

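Total RNA of the 6 sorted samples (100 ng each) was amplified, labelled with biotin and hybridised to 1-colour arrays, per the labels' protocols. The authors deposited log2 values, 1 per probe set and array. The submitters' processing notes name RMA and Affymetrix Expression Console 1.1, while options and genome build are not given in the sources used here. RMA in its usual form gives the arrays equal distributions and so removes shifts common to all genes. Of 35556 rows, the 21789 that carry exactly 1 gene symbol in the platform annotation entered the tests. A further 1621 name several genes and 12146 are unnamed here.

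Differences are KO minus WT from limma 3.58.1 (R 4.3.3; lmFit, eBayes with a constant prior, no covariate and no filter). P-values are two-sided, with Benjamini-Hochberg adjustment across all tested rows and a threshold of 0.05. The code was tested on simulated data. Sums and medians over members have no p. Read depth does not apply to arrays, whose number sets the precision.

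Members, gene lists and alternatives were chosen with earlier results of these data known. The genes named are the 8 highest and 8 lowest members by moderated t, the 4 brightest, 4 dimmest and 4 most variable, the stalk genes, members with known roles, paralogues with their parents, members whose probe sets differ in sign, and the 2 highest and 2 lowest of each other translation list. The processing was varied by leaving out rows below the 40th percentile of mean signal over all 35556 rows (percentiles in the text are over the tested rows), by testing every row or 1 per gene, by another prior, by weighting arrays, by quantile normalization or median centring, by a replicate block, by omitting single arrays, by a threshold of 0.1, by averaging a gene's probe sets, and by keeping standard subunits alone. The non-overlap counts under other scalings were added after seeing the data.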

Additional observations from a re-analysis of the deposited data

How the results depend on the processing

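No member passed in limma under any alternative run. The count at an unadjusted p under 0.05 was 1 to 11, highest with the trended and robust prior. No share over all probe sets was computed beside it. The family's median stayed below 0, at -0.090 to -0.046 over arrays left out and -0.076 to -0.046 over the other alternatives, each within 1 SD of the replicates of the reported value. The medians of both subunits also stayed below 0, and the large minus small difference stayed within 1 SD (-0.003 to 0.016 over arrays left out). The count over all probe sets moved more. It was 69 with all rows tested, 40 with a trended and robust prior, 150 with array weights, 17 after a further quantile normalization, 58 at an adjusted p under 0.1, and 5 to 82 with each array left out (82 without KO replicate 1, 5 without KO replicate 2 or 3, 8 without WT replicate 1 or 3), against 26. Whether the replicate numbers pair the samples cannot be settled from these arrays. Same-numbered KO and WT arrays correlated at 0.10, -0.004 and 0.27 in their deviations from group means. KO replicates 1 and 3 correlated best with the WT array of their own number, and KO replicate 2 with WT replicate 1 (0.13). With the replicate block 19 probe sets and 0 members were called, and the family's median was -0.066. A filter on dim probe sets left 60 members. Whether signals near the top of the range limit the differences of the bright ones was not tested. The causes of these shifts were not tested.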
